A study of Vitis vinifera with 2 samples.

Results

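The random sequences of the grape genome are stretches that the assembly ties to a numbered chromosome without a known place on it, and the files give them the chromosome's number with the ending random. All sequences with such a name were taken, which gave 13 of the 33 sequences in the files, numbered 1, 3, 4, 5, 7, 9, 10, 11, 12, 13, 16, 17 and 18. The rule used the name alone and no methylation value. Each random sequence was set beside the chromosome of the same number, and the sequence named Un, which holds what has no chromosome at all, served as another point of comparison. The values came from 1633 of the 1685 windows of 10 kb on the random sequences, out of 47110 windows used in the whole series, where a window needed at least 10 cytosines of each context listed in both libraries.

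Whole-genome bisulfite sequencing (WGBS) was used by the study to ask whether genome duplication changed DNA methylation in grapevine (Vitis vinifera). The autotetraploid (4X) had been induced with colchicine from tissue culture plantlets of the diploid 'Jingyanjing' grapevine (2X). Both groups gave terminal buds, called tip buds in the labels, collected before the terminal buds of 4X were shed, and all vines were tended alike. Buds of several vines were pooled into 1 library for 4X and 1 library for 2X, so there were no replicates, and a difference between 4X and 2X is a difference between 2 libraries.

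In plants, cytosines are methylated in the CG, CHG and CHH contexts, where H is any base but G. In Arabidopsis, CG methylation is copied after replication by MET1, CHG methylation is kept by CMT3 together with a histone mark of silent chromatin, and CHH methylation is laid down by DRM2 along the RNA-directed pathway and by CMT2. Transposons and other repeats usually carry all 3 contexts, the bodies of active genes often carry CG alone, and promoters of active genes usually carry little. Assemblers tend to leave repeat-rich stretches unplaced, because reads from copies of a repeat fit at several places.

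The methylation level below is the share of methylated reads among all reads at the cytosines of a window or sequence, in percent, and differences between levels are in percentage points. Intervals are 95% Wilson intervals and cover counting error only, since without molecular identifiers reads may be copies of one molecule and neighbouring cytosines share reads. There were 107953691 cytosines with a context in the 4X file and 109144727 in the 2X file, each with 3 reads or more. On the random sequences 3610904 cytosines were listed in 4X and 3651457 in 2X, and 80.8% of those in either file were in both, against 81.4% on the chromosomes of the same numbers. The shared cytosines in the windows had a mean depth of 12.8 reads in 4X and 13.99 reads in 2X on the random sequences, against 12.5 reads in 4X and 13.7 reads in 2X on the chromosomes of the same numbers. The random sequences were thus read 1.02 times as deeply as their chromosomes in both libraries, and this excess is not seen in the typical window: the medians over windows gave 1.0005 times in 4X and 0.993 times in 2X.

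The random sequences differed widely in size. The largest was 18_random, with 504 windows and a last listed position of 5.17 Mb, followed by 13_random with 317 windows, 12_random with 157, 7_random with 139 and 3_random with 120. The smallest were 4_random with 8 windows and 11_random with 24. Together they reached 16.8 Mb, and 14.4% of that length lay in gaps of over 500 bp without a listed cytosine, against 11.4% on the chromosomes of the same numbers and 31.3% on Un. The gaps were unevenly spread, since they took 37.8% of 11_random and 31.8% of 16_random but 2.94% of 9_random.

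Methylation was higher on the random sequences than on their chromosomes in all 3 contexts when the sequences were pooled. The CG level was 71.9% in 4X (71.87 to 71.97) and 71.98% in 2X (71.93 to 72.03) on the random sequences, against 58.9% in 4X and 59.1% in 2X on the chromosomes of the same numbers. The CHG level was 43.2% in 4X (43.11 to 43.20) and 43.6% in 2X (43.53 to 43.62) on the random sequences, against 27.0% in 4X and 27.5% in 2X on the chromosomes. The CHH level was 2.93% in 4X (2.922 to 2.933) and 2.99% in 2X (2.981 to 2.991) on the random sequences, against 2.48% in 4X and 2.48% in 2X on the chromosomes. The random minus chromosome difference was 13.04 points in 4X and 12.9 points in 2X for CG, 16.2 points in 4X and 16.04 points in 2X for CHG, and 0.443 points in 4X and 0.507 points in 2X for CHH. CHG therefore had the largest difference in points, and the direction was the same in both libraries.

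The place of Un depended on how reads were weighted. With all reads pooled, its CG level of 52.3% in 4X and 52.8% in 2X was below that of the chromosomes, and its CHH level of 4.24% in 4X and 3.99% in 2X was above that of the random sequences. With each cytosine weighted equally, the CG level of Un was 62.8% in 4X and 62.7% in 2X, above the 59.9% in 4X and 59.7% in 2X of the chromosomes of the same numbers. By that measure the CHH level was 3.01% in 4X and 3.06% in 2X on the random sequences, against 2.76% in 4X and 2.80% in 2X on Un. The CHG level of Un, 33.97% in 4X and 34.5% in 2X with all reads pooled, lay between those of the random sequences and the chromosomes. The mean depth of Un was 15.7 reads in 4X and 16.8 reads in 2X.

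Sequence by sequence, the random sequence had the higher CG level in 10 of 13 pairs and the higher CHG level in 12 of 13, in both libraries. The CHH level was higher on the random sequence in 9 of 13 pairs in 4X and in 10 of 13 in 2X, and in 11 of 13 in both libraries without deep windows (mean depth over 2 times the median chromosome window). With all windows, the exceptions in CG were 4_random, 11_random and 16_random, and the exception in CHG was 11_random. In no pair, context or library did the Wilson intervals of the random sequence and its chromosome overlap. Such intervals are narrow because the read counts are large, and chromosomes can differ by them too. For CG in 4X they were 58.16 to 58.25 on chromosome 1 and 61.00 to 61.09 on chromosome 5. The lack of overlap thus does not set the random sequences apart.

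**Figure D1:**
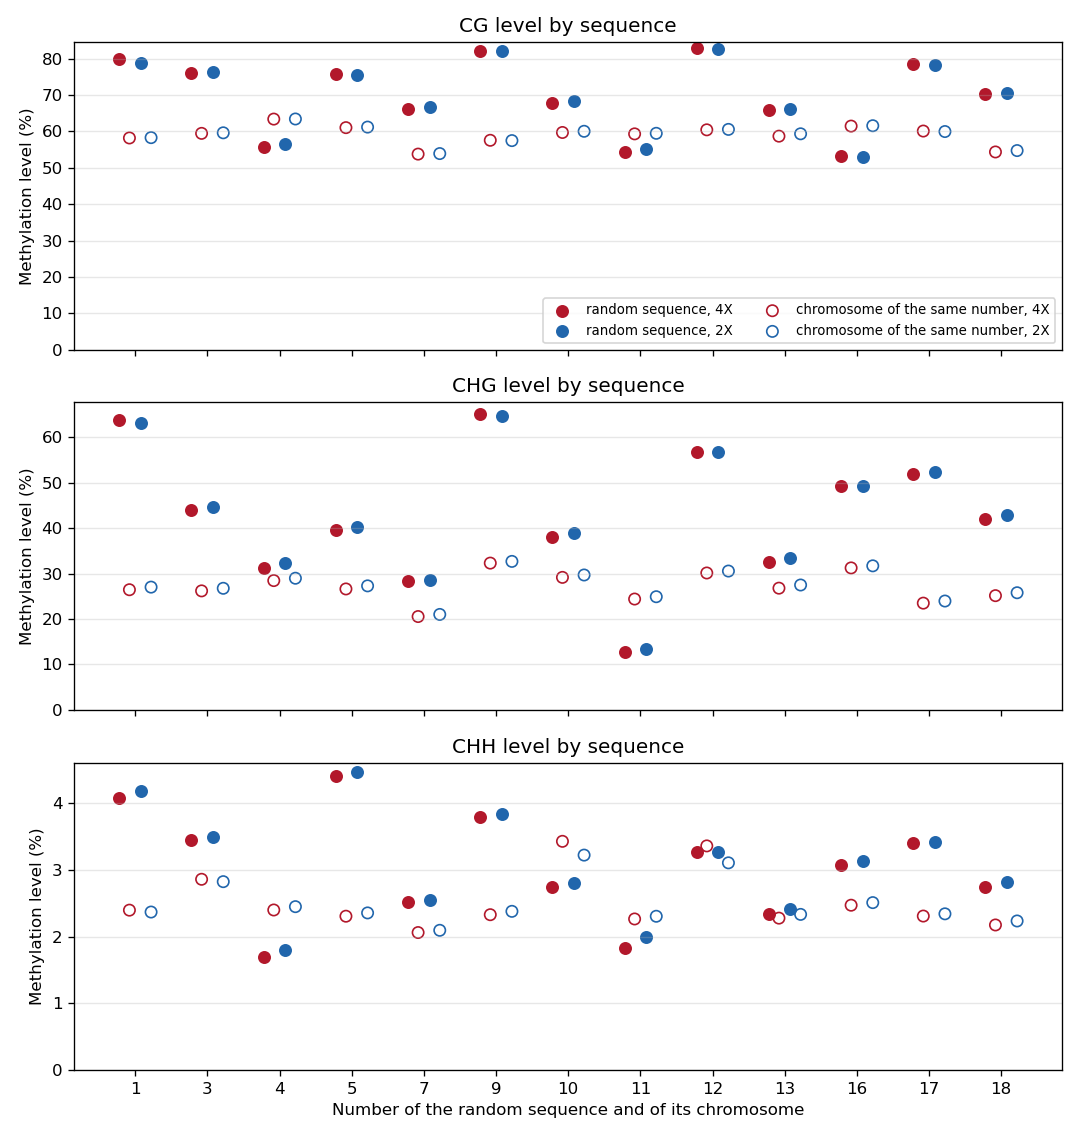
Methylation level (%) of each random sequence (filled points) and of the chromosome of the same number (open points) in the 4X library (red) and the 2X library (blue), with 1 panel per context. In CG the filled points lie above the open ones for 10 of 13 numbers, in CHG for 12 of 13, and the libraries lie close together within each sequence.

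The most heavily methylated random sequences were 9_random, 12_random, 1_random and 17_random, which all had a CG level over 78% in both libraries. On 9_random the CG level was 82.1% in 4X and 82.0% in 2X, and its CHG level of 65.0% in 4X and 64.7% in 2X was the highest of the 13. On 12_random CG stood at 82.96% in 4X and 82.6% in 2X, with CHG at 56.7% in 4X and 56.7% in 2X. On 1_random CG was 79.8% in 4X and 78.8% in 2X, and CHG was 63.7% in 4X and 63.2% in 2X. Which sequence had the highest CG level depended on the weighting, since with each cytosine weighted equally it was 84.6% in 4X and 84.2% in 2X on 1_random and 82.6% in 4X and 82.3% in 2X on 12_random. These CHG levels stood far above those of the matching chromosomes, with a difference of 37.3 points in 4X and 36.2 points in 2X for number 1 and of 32.7 points in 4X and 32.1 points in 2X for number 9. For number 17 the CHG level was 52.0% in 4X and 52.2% in 2X on the random sequence, against 23.5% in 4X and 24.0% in 2X on the chromosome.

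A middle group of random sequences had CG levels between 65.8% and 76.3% and CHG levels between 28.3% and 44.7%. It held 3_random with a CG level of 76.0% in 4X and 76.3% in 2X, 5_random with 75.8% in 4X and 75.5% in 2X, and 18_random with 70.2% in 4X and 70.5% in 2X. It also held 10_random with 67.7% in 4X and 68.3% in 2X, 7_random with 66.2% in 4X and 66.7% in 2X, and 13_random with 65.8% in 4X and 66.2% in 2X. All of them lay above their chromosomes, by as little as 7.05 points in 4X and 6.89 points in 2X for number 13. Without deep windows on either side these gaps were smaller, with 2.10 points in 4X and 2.52 points in 2X for number 13 and 3.82 points in 4X and 4.32 points in 2X for number 10. In CHG the same group ran down to 28.3% in 4X and 28.6% in 2X on 7_random, which still exceeded the 20.5% in 4X and 21.0% in 2X of chromosome 7. The highest CHH level of any random sequence belonged to this group, with 4.40% in 4X and 4.47% in 2X on 5_random, against 2.30% in 4X and 2.35% in 2X on chromosome 5.

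The lowest CHG level of any random sequence was that of 11_random. Its CG level was 54.3% in 4X and 55.2% in 2X, against 59.3% in 4X and 59.5% in 2X on chromosome 11. Its CHG level was 12.8% in 4X and 13.3% in 2X, against 24.4% in 4X and 24.9% in 2X on chromosome 11, and its CHH level of 1.82% in 4X and 2.00% in 2X was also below that of the chromosome. The small 4_random had a CG level of 55.8% in 4X and 56.6% in 2X, against 63.4% in 4X and 63.4% in 2X on chromosome 4, but a CHG level 2.71 points higher in 4X and 3.25 points higher in 2X than chromosome 4. Its 8 windows ranged in CG level between 23.4% and 82.6% in 4X, so its level rests on a few unlike windows.

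On 16_random the low CG level came with a few very deep cytosines. The CG level of the whole sequence was 53.4% in 4X and 53.1% in 2X, against 61.5% in 4X and 61.6% in 2X on chromosome 16. A window was called deep when its mean depth passed 2 times the median window of the 19 chromosomes, which was 11.6 reads in 4X and 12.7 reads in 2X. The 2 deep windows of 16_random held 38.9% of its CG reads in 4X and 39.3% in 2X. Without deep windows on either side, a choice made after seeing the data, the CG level was 82.5% in 4X and 82.4% in 2X on 16_random, against 64.9% in 4X and 64.9% in 2X on chromosome 16. The sign of the difference thus turned for number 16, and 11 of 13 random sequences then had the higher CG level in both libraries.

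The deepest random window, positions 180001 to 190000 of 16_random, had a mean depth of 70.7 reads in 4X and 74.4 reads in 2X, 6.08 times the median chromosome window in 4X and 5.85 times in 2X. Its CG level was 5.59% in 4X and 5.39% in 2X. In steps of 1 kb, the depth was concentrated at positions 186001 to 187000, with 339 reads per cytosine in 4X and 359 in 2X over 335 cytosines, where the CG level was 1.91% in 4X and 2.11% in 2X. The next step had 79.96 reads in 4X and 84.2 reads in 2X and a CG level of 6.77% in 4X and 6.20% in 2X. The remaining 8 steps of the window had depths between 6.48 and 22.2 reads, and all but the one at positions 184001 to 185000 had CG levels over 80% in both libraries.

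A stretch of the same kind on 1_random is given after its values were seen. In the window at positions 470001 to 480000, the step at positions 478001 to 479000 had 246 reads per cytosine in 4X and 288 reads in 2X over 258 cytosines. The CG level of this step was 3.89% in 4X and 4.18% in 2X, while in the other 9 steps it was between 89.6% and 96.9% in both libraries. Without the windows of 1_random that were deep in either library its CG level was 84.4% in 4X and 83.8% in 2X. In both stretches a short, very deep and nearly unmethylated piece thus sat inside heavily methylated sequence, and the libraries showed it alike. Which sequence these reads came from was not tested.

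**Figure D2:**
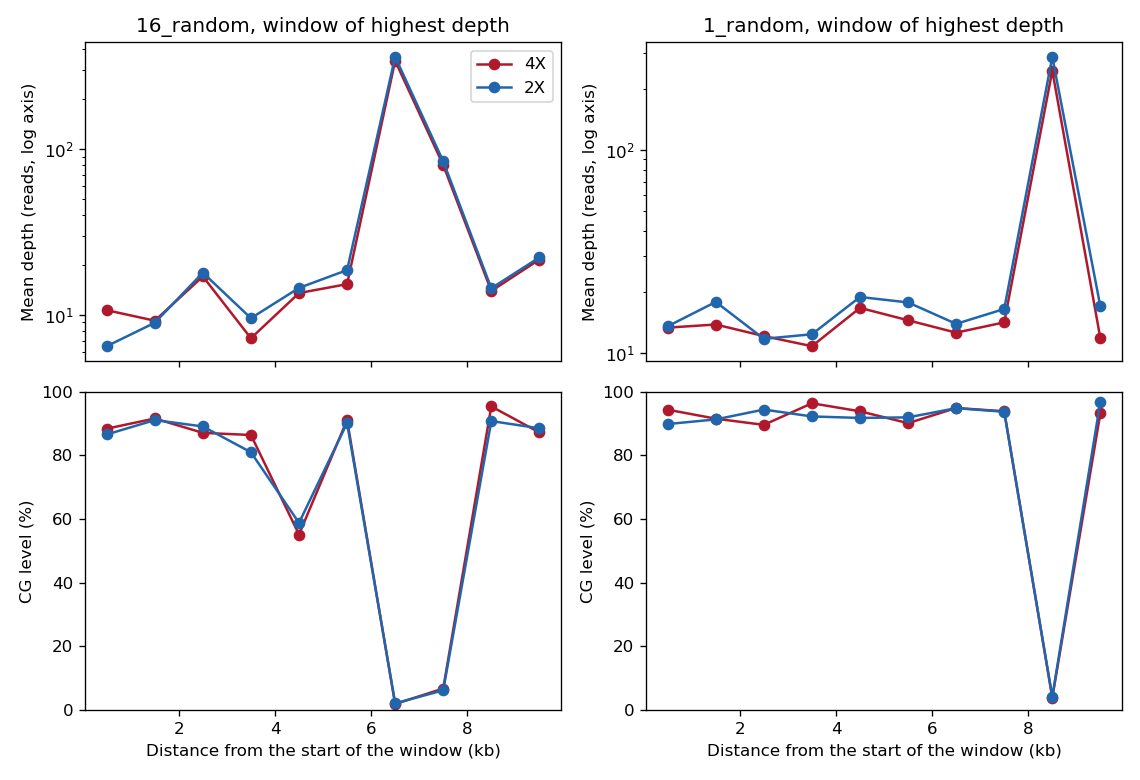
Mean depth in reads per shared cytosine (upper panels, log axis) and CG level in percent (lower panels) in 1 kb steps along the deepest window of 16_random (left) and of 1_random (right), for 4X (red) and 2X (blue). Depth peaks at 339 reads in 4X and 359 reads in 2X on 16_random and at 246 reads in 4X and 288 reads in 2X on 1_random, and the CG level falls below 5% at the same step in each.

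Deep windows were a small share of the random sequences. There were 24 in 4X and 27 in 2X of 1633, or 1.47% in 4X and 1.65% in 2X, against 0.744% in 4X and 0.755% in 2X on the chromosomes of the same numbers and 4.03% in 4X and 3.96% in 2X on Un. In both libraries at once 23 random windows were deep, and 1 of them had a pooled CG level under 20%, against 81 of 196 on the chromosomes of the same numbers. The 23 had a median CG level of 71.2% in 4X and 71.7% in 2X, against 76.6% in 4X and 76.8% in 2X in the other random windows. Their CHG level was lower as well, with a median of 31.0% in 4X and 33.04% in 2X, against 51.6% in 4X and 51.3% in 2X in the others, and so was their CHH level, with 1.80% in 4X and 2.08% in 2X, against 2.96% in 4X and 2.995% in 2X. The larger share of deep random windows turned with the cutoff. Over 3 times the median there were 2 in 4X and 3 in 2X of 1633. On the chromosomes of the same numbers there were 96 in 4X and 93 in 2X of 28093, a larger share.

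Of the deep windows, 16 in 4X and 18 in 2X lay on 18_random. The longest run covered 7 windows, positions 4650001 to 4720000, where depth was 1.95 to 2.31 times the median chromosome window in 4X and 2.04 to 2.32 times in 2X. Another run of 4 windows, positions 3260001 to 3300000, had 2.29 to 2.36 times the median in 4X and 2.25 to 2.48 times in 2X. The depth of 18_random as a whole was 1.10 times that of chromosome 18 in 4X and 1.12 times in 2X. The 4X over 2X depth ratio of the random sequences ran between 0.876 on 4_random and 0.948 on 16_random, with 0.913 for all of them pooled and 0.914 for the chromosomes of the same numbers. Relative to the ratio of the chromosome medians, 2 of 1633 random windows lay outside 0.667 to 1.5, against 35 of 28093 windows on those chromosomes.

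The higher pooled levels of the random sequences went with a different mix of windows. Windows were sorted by the reads of both libraries together into a class high in CG and CHG (CG at least 70% and CHG at least 40%), a CG only class (CG at least 20% and CHG under 10%), an unmethylated class (CG under 20% and CHG under 10%) and an intermediate rest. The high class held 844 of 1633 random windows, or 51.7%, against 32.6% of the windows on the chromosomes of the same numbers and 45.7% on Un. The CG only class held 201 random windows, or 12.3%, against 25.1% on the chromosomes and 16.2% on Un. Unmethylated windows numbered 36, or 2.20% of the random windows, against 6.31% on the chromosomes and 7.86% on Un. Random sequences thus had a larger share of windows methylated in both symmetric contexts and smaller shares of both other defined classes.

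In the high class random windows had levels close to those of the chromosomes, and in the other classes they differed more. In the high class the median CG level was 84.0% in 4X and 83.8% in 2X on random sequences, against 83.9% in 4X and 83.7% in 2X on the chromosomes. The median CHG level in this class was 68.1% in 4X and 68.0% in 2X on random sequences, against 67.8% in 4X and 67.6% in 2X on the chromosomes, and the median CHH level was 3.88% in 4X and 3.89% in 2X, against 3.94% in 4X and 3.97% in 2X. In the CG only class the median CG level was higher on random sequences, at 51.6% in 4X and 51.5% in 2X, against 46.7% in 4X and 46.7% in 2X on the chromosomes. In the intermediate class the median CHG level was 29.8% in 4X and 30.7% in 2X on random sequences, against 26.2% in 4X and 26.96% in 2X on the chromosomes. In the unmethylated class the median CG level was 9.26% in 4X and 9.23% in 2X on random sequences, against 11.5% in 4X and 11.6% in 2X on the chromosomes.

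The mix differed strongly among the random sequences. The high class held 44 of 49 windows on 9_random, 45 of 55 on 1_random, 53 of 68 on 16_random, 60 of 83 on 17_random and 109 of 157 on 12_random. At the other end it held 2 of 24 windows on 11_random, where 8 windows were CG only and 5 unmethylated. On 10_random 20 of 75 windows were CG only and 8 unmethylated, and 7_random had 31 CG only and 8 unmethylated windows of 139. No unmethylated window was found on 1_random, 4_random, 9_random, 12_random or 17_random.

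**Figure D3:**
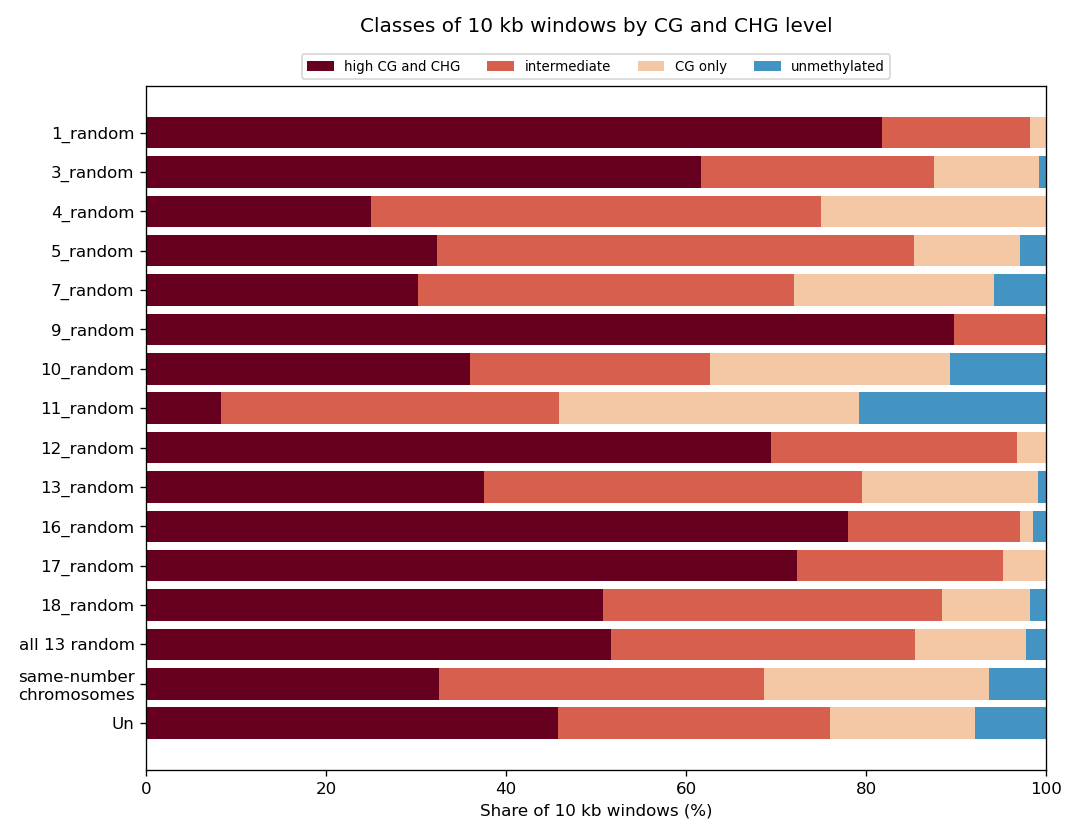
Share of 10 kb windows (%) in the class high in CG and CHG, the intermediate rest, the CG only class and the unmethylated class, for each random sequence, all 13 random sequences, the chromosomes of the same numbers and Un. The high class takes 51.7% of all random windows, against 32.6% on the chromosomes and 45.7% on Un, and ranges between 8.33% on 11_random and 89.8% on 9_random.

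The same shift was seen at single cytosines. Of the 217701 shared CG cytosines on random sequences, 64.1% in 4X and 64.0% in 2X had a level of at least 80%, against 53.4% in 4X and 53.3% in 2X on the chromosomes of the same numbers. A level of at most 10% was found at 15.7% of them in 4X and 15.8% in 2X, against 29.8% in 4X and 29.9% in 2X on the chromosomes. In CHG, 61.2% of cytosines in 4X and 62.1% in 2X had a methylated read on random sequences, against 39.9% in 4X and 40.8% in 2X on the chromosomes. In CHH the shares with a methylated read were 15.8% in 4X and 16.98% in 2X on random sequences, against 12.4% in 4X and 13.4% in 2X on the chromosomes. Such a share also depends on depth, which was lower in 4X.

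The ends of the CG range were taken from the reads of both libraries together. The lowest window, positions 910001 to 920000 of 7_random, had a CG level of 0.304% in 4X and 0.164% in 2X over 146 CG cytosines, and a CHG level of 0.144% in 4X and 0.185% in 2X over 389 cytosines. The highest in the reads of both libraries, positions 4900001 to 4910000 of 18_random, had a CG level of 91.5% in 4X (85.7 to 95.1) and 97.8% in 2X (92.3 to 99.4), but over 20 CG cytosines with few reads, so that it was not the highest in 4X, where windows of 7_random and 12_random reached 94.3%. Its CHH level was only 1.22% in 4X and 1.24% in 2X.

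A CHH level over 10% was rare, with 14 random windows in 4X and 13 in 2X, or 0.857% in 4X and 0.796% in 2X, close to the 0.815% in 4X and 0.854% in 2X on the chromosomes of the same numbers. Several of them held few cytosines, so 5 with more are given, which were chosen after their values were seen. Positions 3200001 to 3210000 of 18_random had a CHH level of 20.7% in 4X and 22.2% in 2X over 1444 CHH cytosines. Positions 150001 to 160000 of 5_random had 21.1% in 4X and 19.7% in 2X over 1065 CHH cytosines, and positions 190001 to 200000 of 9_random had 15.5% in 4X and 15.97% in 2X over 2132. These 3 windows had CG levels between 68.3% and 89.5% and CHG levels between 45.5% and 81.1%. Positions 410001 to 420000 of 1_random, with CHH at 12.1% in 4X and 14.7% in 2X over 2506 CHH cytosines, also had high CHG, at 74.6% in 4X and 75.2% in 2X. At positions 740001 to 750000 of 7_random, by contrast, CHH was 13.1% in 4X and 16.4% in 2X over 924 CHH cytosines, while CHG was 9.20% in 4X and 6.63% in 2X and CG 58% in 4X and 58.4% in 2X.

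Levels of neighbouring random windows were related, but weakly. Over 1591 pairs of adjacent windows Pearson's r was 0.358 for CG, 0.433 for CHG and 0.163 for CHH, against 0.415, 0.508 and 0.212 over 27569 pairs on the chromosomes of the same numbers. Between the libraries, the levels of the 1633 random windows had an r of 0.988 for CG, 0.993 for CHG and 0.969 for CHH. Such points share base composition and reads near window borders, and the values are descriptions. The CG and CHG levels of random windows had an r of 0.721, and depth and CG level had one of 0.0331 in 4X and 0.0281 in 2X.

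A regular spacing of cytosines was looked for as a sign of tandem repeats, since a genome sequence of this build was not used here. Each window was coded as 1 at listed cytosines and 0 elsewhere, and the track was correlated with itself at spacings of 20 to 2000 bp. A correlation of at least 0.3 was found in 27 random windows, or 1.65%, against 1.03% of the windows on the chromosomes of the same numbers and 4.82% on Un. The 27 windows had a median CG level of 88.4% in 4X and 87.2% in 2X, against 76.3% in 4X and 76.5% in 2X in the other random windows. Periodic random windows were thus rare and, for the most part, heavily methylated.

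The strongest periodicity belonged to 12_random. Of its 10 periodic windows, 8 had a best spacing of 107 bp, and these lay between position 1420001 and the end of the sequence, with correlations of 0.418 to 0.641. The strongest window, positions 1540001 to 1550000, had a correlation of 0.641, a CG level of 91.4% in 4X and 91.4% in 2X, a CHG level of 75.5% in 4X and 77.3% in 2X and a CHH level of 8.65% in 4X and 8.19% in 2X. Across the 8 windows the CG level was 91.1% to 94.3% in 4X and 89.9% to 94.1% in 2X, the CHG level was 75.5% to 78.6% in 4X and 73.6% to 79.3% in 2X, and 41.3% of their shared cytosines were CG, against 6.80% of the cytosines listed in all random windows. Their CHH levels varied more, between 3.99% and 11.01% in 4X and between 4.76% and 9.20% in 2X.

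The spacing of 107 bp was seen on no other random sequence. On the 19 chromosomes it was the best spacing of 35 periodic windows, of which 15 were on chromosome 9, 11 on chromosome 2 and 2 on chromosome 12. A satellite repeat with a unit of this length is known as the main centromeric repeat of grape. Whether these windows hold it was not tested. The other periodic windows were scattered, with 66 bp in 2 windows of 12_random, 103 bp in 2 windows of 1_random and 187 bp in 1 window of 3_random, whose depth was 23.5 reads in 4X and 24.5 reads in 2X.

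Between 4X and 2X, the pooled random sequences differed little. The 4X minus 2X difference was -0.0624 points in CG (half-width of the 95% interval 0.0734), which is within counting error. It was -0.424 points in CHG (half-width 0.0655) and -0.0587 points in CHH (half-width 0.00782), both larger than counting error. The chromosomes of the same numbers had differences of -0.172 points in CG, -0.546 points in CHG and 0.00505 points in CHH. Random minus chromosome, these differences differed, with all windows, by 0.109 points in CG (half-width 0.0757), 0.122 points in CHG (half-width 0.0668) and -0.0638 points in CHH (half-width 0.00801). The sign of the CHG difference turned with the summary used, since the medians over random windows, taken in each library, differed by 0.345 points, 4X minus 2X. The median of the CHG differences within the 1633 windows was -0.208 points, with 712 windows higher and 920 lower in 4X. Without deep windows, these differences of differences were 0.0591 points in CG (half-width 0.0769), 0.165 points in CHG (half-width 0.0684) and -0.0101 points in CHH (half-width 0.00825), so that CG was within counting error and CHH only just past it. The spread between vines or libraries of one line was not measured.

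The CHH level was lower in 4X on all 13 random sequences, and the difference passed counting error on 9 of them. It ran between -0.173 points on 11_random and -0.0133 points on 17_random. On the chromosomes of the same numbers the CHH level was lower in 4X on 9 of 13 and higher on chromosomes 1, 3, 10 and 12. For number 12 the difference was -0.0136 points on the random sequence, against 0.254 points on the chromosome, and for number 10 it was -0.0625 points on the random sequence, against 0.206 points on the chromosome. Without deep windows on either side, the CHH level was lower in 4X on 13 of 13 random sequences and on 13 of 13 chromosomes, so the contrast for these numbers was not seen there. With each cytosine weighted equally, the CHH level was lower in 4X on 11 of 13 random sequences.

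In the windows of the unmethylated class the CHH level was lower in 4X as well. The median over the 36 unmethylated random windows was 0.351% in 4X and 0.524% in 2X, and over the unmethylated windows of the chromosomes it was 0.485% in 4X and 0.534% in 2X. A rate of bisulfite conversion for each library was not used here, and its part in the CHH difference was not tested. No random sequence reached the size set for a call of a whole sequence in CHH, 0.2 points.

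In CHG the level was lower in 4X on 9 of 13 random sequences, against 13 of 13 of their chromosomes. The difference was largest on 4_random, with -1.05 points (half-width 0.968), the only random sequence past the 1 point set for a call. It was -0.914 points on 13_random, -0.849 on 10_random and -0.751 on 18_random, all larger than counting error. On 1_random the CHG level was higher in 4X by 0.512 points (half-width 0.272), while chromosome 1 had a difference of -0.571 points. With each cytosine weighted equally, CHG was lower in 4X on 6 of 13 random sequences and none was past 1 point. The CHG differences of 9_random, 12_random and 16_random were 0.255, 0.00220 and 0.0341 points, all within counting error, and each of these random sequences was less negative than its chromosome by more than counting error.

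In CG the level was lower in 4X on 7 of 13 random sequences and higher on 6, and none reached 1 point. With each cytosine weighted equally it was lower on 1, so these directions rest on how reads are weighted. The difference was largest on 1_random, with 0.991 points (half-width 0.260), against -0.0911 points on chromosome 1. Without its deep windows the difference on 1_random was 0.657 points. On 11_random it was -0.917 points (half-width 0.859) and on 4_random -0.746 points (half-width 1.15), where the small number of cytosines set wide intervals. The random sequence and its chromosome differed in their 4X minus 2X difference by more than counting error for 4 of 13 numbers in CG, 6 in CHG and 7 in CHH.

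**Figure D4:**
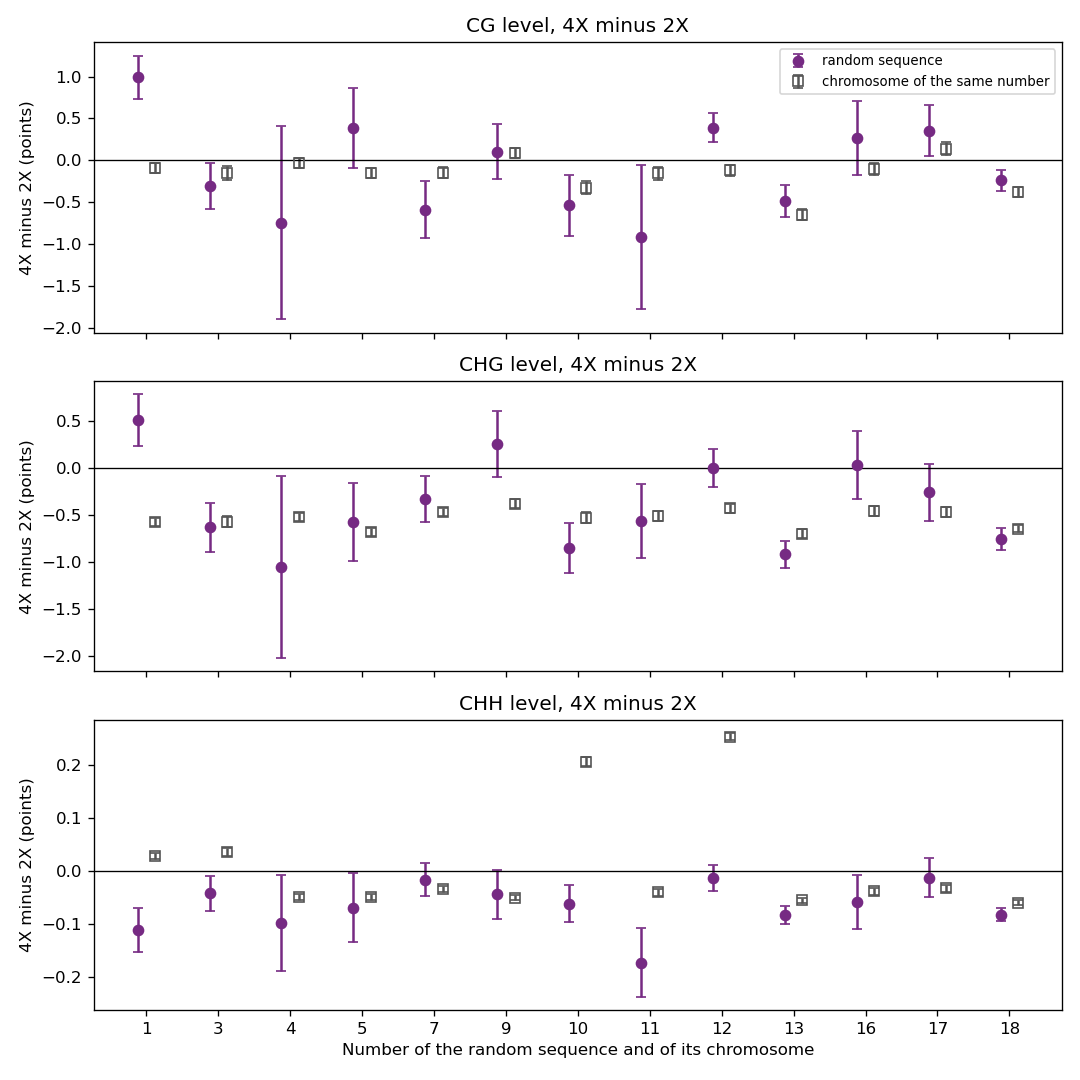
Difference in methylation level, 4X minus 2X, in percentage points, for each random sequence (filled purple points) and the chromosome of the same number (open grey squares), with bars for the 95% interval from counting error. In CHH all 13 random sequences lie below 0, while chromosomes 1, 3, 10 and 12 lie above it. In CG and CHG 1_random lies above its chromosome.

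Differences in single windows were few. A CG difference of at least 10 points was found in 15 random windows (0.919%), of which 5 were higher and 10 lower in 4X, where 0.858% of all windows of the series passed that size. In CHG 17 random windows (1.04%) passed 10 points, 7 higher and 10 lower in 4X, against 0.688% of all windows. In CHH 17 random windows (1.04%) passed 2 points, 7 higher and 10 lower in 4X, against 0.974% of all windows. The shares in CG and CHH were near those of the whole series. The windows that passed held few cytosines, with a median of 25 CG cytosines, against 124 in the other random windows, and a median of 31 CHG cytosines, against 194. With at least 50 cytosines per context, 4 random windows (0.275%) passed in CG, against 0.365% of all windows, 2 (0.138%) in CHG, against 0.230%, and 8 (0.551%) in CHH, against 0.635%. The larger CHG share of the random sequences thus turned with this minimum.

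Of the sequences, 7_random held the most such windows, 5 for CG, 7 for CHG and 4 for CHH out of its 139. The largest rises and falls below are those among random windows with a mean depth of at least 5 reads in both libraries. The largest rise in CG was at positions 3610001 to 3620000 of 18_random, with 60.7% in 4X (52.3 to 68.6) and 36.9% in 2X (29.1 to 45.5) over 15 CG cytosines. The largest fall in CG, at positions 1220001 to 1230000 of 7_random, had 46.2% in 4X (34.6 to 58.1) and 65.4% in 2X (51.8 to 76.8) over 10 CG cytosines, so that these intervals overlapped. The intervals of the window with the rise did not overlap, but it was chosen as the most extreme of the windows with that depth.

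The largest rise in CHG was at positions 180001 to 190000 of 11_random, with 50.9% in 4X (41.6 to 60.3) and 29.5% in 2X (22.4 to 37.8) over 17 CHG cytosines. The largest fall in CHG was at positions 4270001 to 4280000 of 18_random, with 36.8% in 4X (30.0 to 44.3) and 53.8% in 2X (46.3 to 61.0) over 22 CHG cytosines. Both windows lay in thinly listed sequence, with 133 shared cytosines of all contexts on 11_random and 158 on 18_random.

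The CHH window with the largest fall stood apart. At positions 450001 to 460000 of 12_random the CHH level was 33.3% in 4X (30.8 to 35.8) and 47.4% in 2X (44.8 to 50.1) over 215 CHH cytosines, with 1343 reads in 4X and 1354 reads in 2X. Its CG level was 83.6% in 4X and 81.0% in 2X, and its CHG level was 78.6% in 4X and 74.0% in 2X, so that the other contexts did not fall with it. This window too was chosen as the most extreme. The largest rise in CHH at that depth was smaller, with 32.1% in 4X and 29.1% in 2X over 655 CHH cytosines at positions 860001 to 870000 of 3_random. A window below the depth minimum, positions 3750001 to 3760000 of 18_random, rose more, with 35.5% in 4X and 30.1% in 2X over 100 CHH cytosines. Its mean depth was 5.35 reads in 4X and 4.86 reads in 2X.

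The reads at each cytosine were put to a Fisher exact test (two-sided), adjusted by the Benjamini-Hochberg method over all shared cytosines of the series within a context. In CG 27 of 217701 random cytosines were called, 23 higher and 4 lower in 4X, where 0.023% of all CG cytosines were called. This was 0.0124% of the random cytosines and thus below the share of the whole series. In CHG 29 of 335874 were called, or 0.00863%, 18 higher and 11 lower in 4X, where 0.00569% of all CHG cytosines were called. In CHH 0 of 2690911 were called by the Fisher test, where 8.81e-06% of all CHH cytosines were called, and 10238 (0.380%) had an unadjusted p under 0.05, against 0.285% of the CHH cytosines on the chromosomes of the same numbers. The share with an unadjusted p under 0.05 was 1.82% in CG on random sequences, against 1.82% on the chromosomes of the same numbers, and 2.22% in CHG, against 1.45%. These shares also depend on the methylation level, since a cytosine without a methylated read in either library cannot reach such a p. In 4X, 61.2% of random CHG cytosines had a methylated read, against 39.9% on those chromosomes. How far the larger CHG and CHH shares go with this was not tested.

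The called cytosines lay on some of the sequences. Of the 27 in CG, 15 were on 18_random, which held 70073 of the 217701 CG cytosines tested. The 29 in CHG were on 5_random, 7_random, 12_random, 13_random, 17_random and 18_random. The median level of the 23 CG cytosines higher in 4X was 71.4% in 4X and 0% in 2X. The CG cytosine with the smallest adjusted p was at position 1810501 of 13_random, methylated in 33 of 36 reads in 4X and 10 of 47 in 2X (Fisher exact test, adjusted p = 4.84e-06). The CHG cytosine with the smallest adjusted p lay 20 bp away, at position 1810481, methylated in 30 of 32 reads in 4X and 6 of 45 in 2X (Fisher exact test, adjusted p = 4.72e-07). In the 201 bp around position 1810501, the CG level was 90.5% in 4X and 39.2% in 2X and the CHG level 73.8% in 4X and 19.8% in 2X, while in the 1 kb after it the CG level was 57.4% in 4X and 58.7% in 2X.

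Cytosines lower in 4X were fewer. The first in CG was at position 362931 of 7_random, methylated in 0 of 33 reads in 4X and 16 of 29 in 2X (Fisher exact test, adjusted p = 0.00280). The first in CHG was at position 958497 of 12_random, methylated in 0 of 29 reads in 4X and 29 of 49 in 2X (Fisher exact test, adjusted p = 0.00118). In the 201 bp around position 958497 the CG level was 88.8% in 4X and 90.2% in 2X, so that CG did not fall with CHG.

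Differentially methylated regions (DMRs) were called by ranking the levels of single cytosines (Kruskal-Wallis test) in 100 bp bins sliding by 25 bp, and called bins of the same direction were merged. In CG this test called 0 regions on random sequences, where 0.000435% of all bins were called, and in CHG 0, where 5.11e-05% of all bins were called. In a bin with few cytosines, ranks cannot give a p small enough to pass an adjustment over all bins of the series. With at least 5 cytosines per bin, 39293 CG bins and 73549 CHG bins of the random sequences were tested. The counts of 0 thus do not show that CG and CHG levels were alike in these bins. An unadjusted p under 0.05 in the rank sum test was found in 6666 of 203145 CG bins (3.28%), against 3.34% on the chromosomes of the same numbers, and in 8001 of 232313 CHG bins (3.44%), against 3.37%. In CHH it called 1226 regions, 508 higher and 718 lower in 4X, from 0.767% of the random bins, where 1.05% of all bins and 1.09% of those on the chromosomes of the same numbers were called. Random sequences thus had a smaller share of called CHH bins than the series as a whole.

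The CHH regions were short and shallow in level. The 718 lower in 4X had a median length of 150 bp and a median CHH level of 0.599% in 4X and 8.83% in 2X in their strongest bin. The level of a strongest bin is here the mean of its cytosine levels. The 508 higher in 4X had a median length of 125 bp and, by the same measure, a median CHH level of 10.3% in 4X and 0.846% in 2X. Most were on the largest sequences, with 428 from 139350 bins tested on 18_random, 241 from 76799 on 13_random, 117 from 51259 on 12_random and 106 from 25836 on 7_random. All random sequences together had 1226 from 435946 bins. Per bin tested, 7_random thus had more regions than 12_random, and so had the small 4_random, with 11 from 2010 bins. With reads summed over the whole region, the first of those higher in 4X by adjusted p had a CHH level of 76.8% in 4X and 69.1% in 2X. It covered 67 CHH cytosines at positions 907001 to 907175 of 12_random. The first of those lower in 4X was at positions 4579826 to 4580075 of 18_random, with 35.3% in 4X and 35.8% in 2X over 81 CHH cytosines, so that the summed reads of the whole region hardly differed. In its strongest bin the mean of the cytosine levels was 53.5% in 4X and 63.5% in 2X. The rank test weighs each cytosine alike and ignores its depth, and no p-value of it is given because its levels are tied.

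When the reads of a bin were summed and put to a Fisher exact test instead, the counts differed. This test counts a read at each cytosine of the bin that it covers. Its counts are therefore not independent and its p-values are too small. It called 225 CG regions on random sequences, 142 higher and 83 lower in 4X, where 0.439% of all bins and 0.271% of the random bins were called. In CHG it called 416 regions, 175 higher and 241 lower in 4X, where 0.328% of all bins and 0.418% of the random bins were called. In CHH it called 1906 regions, 895 higher and 1011 lower in 4X, where 1.09% of all bins and 0.934% of the random bins were called. By adjusted p, the random share in this test too was below that of the series in CG and CHH, and it was above it in CHG. By unadjusted p at the same cutoff, the random share in CG was 5.85%, against 5.57% of all bins. In CHH it was 7.91%, against 7.22%, and in CHG it was 6.33%, against 4.82%. The direction in CG and CHH thus turned with the adjustment, while that in CHG did not.

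The region with the smallest adjusted p of all these was on 17_random. At positions 380426 to 380625 the CHG level was 82.3% in 4X (74.2 to 88.2) and 3.48% in 2X (1.36 to 8.60) (Fisher exact test of the strongest bin, adjusted p = 7.37e-33). This level rests on 6 CHG cytosines with 113 read counts in 4X and 115 in 2X. Each of the 6 was covered by 17 to 21 reads in 4X and 12 to 27 reads in 2X, and reads were counted at several of them. The 2 CG cytosines of the region had a level of 80.6% in 4X (65.0 to 90.2) and 0% in 2X (up to 9.64), and the CHH level was 3.19% in 4X and 0.137% in 2X. In the 1 kb before it, CG was 1.94% in 4X and 0.965% in 2X and CHG was 0% in 4X and 0% in 2X, while in the 1 kb after it CG was 72.1% in 4X and 75% in 2X and CHG was 36.4% in 4X and 29.1% in 2X. The region thus lay at the edge between unmethylated and methylated sequence, and all 3 contexts were higher there in 4X. It also held 2 of the called CG cytosines and 4 of the called CHG cytosines.

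**Figure D5:**
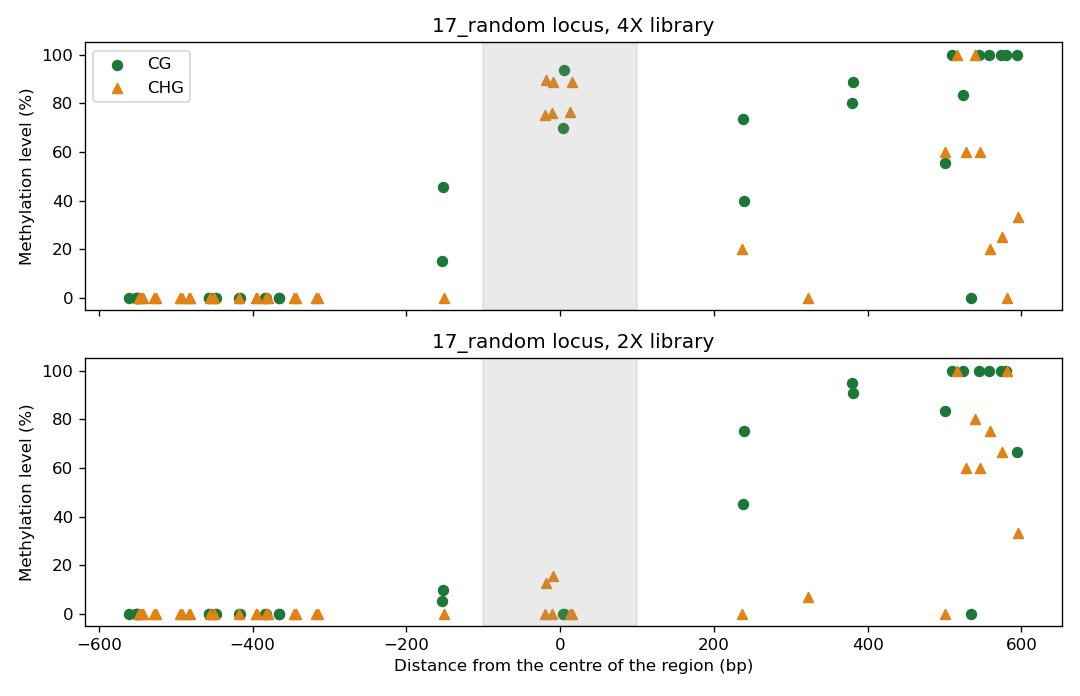
Methylation level (%) of single CG (green circles) and CHG (orange triangles) cytosines around the centre of the 17_random region, by distance in bp, in 4X (upper panel) and 2X (lower panel), with the region shaded. The 8 cytosines in the shaded region lie at high levels in 4X and low levels in 2X, with mostly unmethylated cytosines to the left in both libraries and methylated ones to the right.

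The 2 regions of 18_random named by the Fisher test of summed reads also lay at an edge. At positions 3071826 to 3072050 of 18_random the CG level was 67.2% in 4X and 25.4% in 2X over 8 CG cytosines (Fisher exact test of the strongest bin, adjusted p = 1.37e-16), with 0.517% in 4X and 0.269% in 2X in the 1 kb before it and 91.9% in 4X and 81.7% in 2X in the 1 kb after it. At positions 4740126 to 4740600 of 18_random the CHG level was 8.24% in 4X and 54.4% in 2X over 29 CHG cytosines (adjusted p = 1.12e-16 by the Fisher exact test), with 7.09% in 4X and 7.37% in 2X in the 1 kb before it and 65.0% in 4X and 71.5% in 2X in the 1 kb after it. Here CG was lower in 4X too, with 12.5% in 4X and 41.2% in 2X. These 2 regions thus moved in opposite directions at a boundary of the same kind. The CHH region of 18_random named by the rank test lay inside methylated sequence instead. Its CG level was 90.4% in 4X and 91.6% in 2X in the 1 kb before it. In the 1 kb after it CG was 80.1% in 4X and 78.8% in 2X.

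The region with the smallest adjusted p among CG regions lower in 4X was at positions 839501 to 839700 of 13_random, with a CG level of 18.9% in 4X and 80.6% in 2X over 8 CG cytosines (Fisher exact test of the strongest bin, adjusted p = 1.17e-10). Its CHG level was 0% in 4X and 0% in 2X, and the CG level around it was 60.8% in 4X and 61.8% in 2X in the 1 kb before and 32.4% in 4X and 50.3% in 2X in the 1 kb after. In CHH the region lower in 4X, positions 89826 to 90275 of 3_random, had a CHH level of 11.8% in 4X and 24.0% in 2X over 81 CHH cytosines, while its CG level was 91.0% in 4X and 89.9% in 2X. It lay inside methylated sequence, with CG at 86.3% in 4X and 87.7% in 2X in the 1 kb before it and at 88.4% in 4X and 87.5% in 2X in the 1 kb after it. The CHH region higher in 4X, positions 655576 to 655875 of 7_random, had a CHH level of 98.8% in 4X and 5% in 2X. This came from only 86 read counts in 4X and 60 in 2X, summed over 18 CHH cytosines. In its strongest bin the mean depth was 4.8 reads in 4X and 3.27 reads in 2X, so a few reads carry the contrast. Its 1 CHG cytosine was at 100% in 4X from 6 reads and at 0% in 2X from 3 reads. That region was followed by 1 kb without a shared cytosine.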

How the data were processed

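The study sequenced bisulfite-treated DNA of 1 library per line, 4X and 2X. Per the study's methods, low-quality reads were removed, read pairs were aligned to the grape genome and cytosines needed at least 3 reads. The files deposited by the authors give, per cytosine, counts of methylated and unmethylated reads and the level as a percent, both taken as deposited by the authors. The aligner version, genome build, conversion rate and handling of duplicate reads were not given in the sources used here. Lines without a context (6 in 4X, 10 in 2X) were left out.

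Cytosines listed in both files were summed in 10 kb windows with at least 10 cytosines per context. Levels are methylated reads over all reads, with Wilson intervals at 95%. Cytosines were compared with Fisher's exact test and 100 bp bins sliding by 25 bp, with at least 2 cytosines, with the Kruskal-Wallis rank sum test that the study names. Adjustment was by Benjamini-Hochberg over the whole series within a context, at 0.05. With 1 library per line, tests compare 2 libraries and not 2 conditions, and windows, cytosines and sequences are not replicates. The files hold no strand column, so the periodicity track marks listed cytosines without strand, unlike the planned track. Scripts were tested on simulated data. The tools were matplotlib 3.10.9, numba 0.67.0, scipy 1.17.1, numpy 2.4.6, pandas 2.3.3 and Python 3.11.15.

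All random sequences are given. Windows were named as those with the highest and lowest difference per context among windows of at least 5 reads per cytosine in both libraries, the deepest, the highest and lowest in CG and the most periodic. Cytosines and regions were named by the smallest adjusted p per context and direction. The members and lists were chosen with earlier results of these data known. Alternatives changed the read minimum, the weighting, the highest depths, the window and bin settings and the test, and leaving out deep windows was chosen after seeing the data.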

Additional observations from a re-analysis of the deposited data

Results flagged for a closer look

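Cytosines listed in only 1 of the libraries enter no comparison above, and they held methylated reads in all 3 contexts. Those on random sequences listed in 4X only had a level of 66.9% at 26454 CG cytosines, 42.1% at 39693 CHG cytosines and 3.32% at 300271 CHH cytosines. Those listed in 2X only had 68.1% at 28999 CG cytosines, 44.4% at 42628 CHG cytosines and 3.42% at 335344 CHH cytosines. They were shallow, with a mean depth between 4.60 and 4.83 reads. Their CG level was below that of the shared random cytosines, 71.9% in 4X and 71.98% in 2X, and their CHH level was above the 2.93% in 4X and 2.99% in 2X of the shared ones. In CHG the cytosines listed in 4X only were below the 43.2% in 4X of the shared ones and those listed in 2X only above their 43.6% in 2X. On the chromosomes of the same numbers CG was lower and CHH higher at such cytosines as well, with CG at 52.1% in 4X only and 54.9% in 2X only, against 58.9% in 4X and 59.1% in 2X at shared ones, and CHH at 2.69% in 4X only and 2.86% in 2X only, against 2.48% in 4X and 2.48% in 2X.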

How the results depend on the processing

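There was 1 library per line, so the spread between vines was not measured, and intervals cover counting error only. Windows with few cytosines limit single differences. The same cytosines and windows were compared in both libraries, but no pairing of vines was possible because the lines have 1 library apiece. Random sequences stayed above their chromosomes in the pooled level in all 3 contexts under each alternative run, and why the values below moved was not tested. The random minus chromosome differences follow in points. With the mean of the cytosine levels they were 12.2 in 4X and 12.2 in 2X for CG, 15.7 in 4X and 15.7 in 2X for CHG, and 0.638 in 4X and 0.646 in 2X for CHH. With the median of the window levels they were 11.1 in 4X and 11.2 in 2X for CG, 24.6 in 4X and 23.6 in 2X for CHG, and 0.833 in 4X and 0.832 in 2X for CHH. Without the highest depths (above the 99th percentile) they were 11.4 in 4X and 11.4 in 2X for CG, 16.05 in 4X and 15.96 in 2X for CHG, and 0.641 in 4X and 0.652 in 2X for CHH. Without 18_random and chromosome 18 they were 13.3 in 4X and 13.2 in 2X for CG, 16.5 in 4X and 16.2 in 2X for CHG, and 0.510 in 4X and 0.570 in 2X for CHH. Without deep windows they were 11.1 in 4X and 11.0 in 2X for CG, 15.8 in 4X and 15.7 in 2X for CHG, and 0.625 in 4X and 0.635 in 2X for CHH. Taking all cytosines a library listed, shared or not, they were 13.1 in 4X for CG, 16.1 in 4X and 15.9 in 2X for CHG, and 0.451 in 4X for CHH. With at least 10 reads they were 16.5 in 4X and 16.3 in 2X for CHG, and 0.434 in 4X for CHH.

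The pooled 4X minus 2X difference on random sequences was less stable. In CG it was 0.235 with the mean of the cytosine levels, -0.207 with window medians and 0.0117 without 18_random. In CHG it was -0.265 with at least 10 reads, -0.0218 with the mean of the cytosine levels, 0.345 with window medians (the opposite direction), -0.501 with all cytosines a library listed and -0.277 without 18_random. In CHH it was -0.0500, -0.0480 and -0.0479 with the mean of the cytosine levels, window medians and without 18_random. These window medians were taken in each library and then subtracted. The median of the differences within windows was 0.0228 points in CG, -0.208 points in CHG and -0.0575 points in CHH. With at least 10 reads 1 random sequence passed 1 point in CG and 0 in CHG, and with the mean of the cytosine levels 0 passed in CHG and 1 was lower in 4X in CG.

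Relative depth was 1.0005 in 4X and 0.993 in 2X by window medians, 1.015 in 4X and 1.013 in 2X without the highest depths, and 1.016 in 4X and 1.016 in 2X with all cytosines a library listed. Over 3 times the median, 2 random windows in 4X and 3 in 2X were deep, out of 1633. On the chromosomes of the same numbers 96 in 4X and 93 in 2X were, out of 28093, a larger share. Windows past the size rule numbered 62 (CG), 56 (CHG) and 58 (CHH) for 5 kb windows, or 1.9994%, 1.81% and 1.87%, against 2.02%, 1.49% and 1.66% of all windows. They numbered 4, 2 and 8 with at least 50 cytosines, or 0.275%, 0.138% and 0.551%, against 0.365%, 0.230% and 0.635%. They numbered 154, 141 and 75 with a size of 5 points in CG and CHG and 1 point in CHH, or 9.43%, 8.63% and 4.59%, against 9.54%, 6.42% and 4.10%. With at least 10 reads the Fisher test called 44 CHG cytosines, or 0.0305%, against 0.0203% of all CHG cytosines. At that minimum the rank test called 369 CHH regions, from 0.276% of the random bins, against 0.392% of all bins. With at least 5 cytosines per bin the rank test called 2 CG regions, from 0.0102% of the random bins, against 0.0169% of all bins. The Fisher test of summed reads called 225 CG, 416 CHG and 1906 CHH regions. At a correlation of at least 0.5, 6 windows were periodic, or 0.367%, and all 6 were on 12_random. The share was 0.0605% on the chromosomes of the same numbers and 0.710% on Un.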
